A study of Mus musculus with 23 samples.

Results

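The genes described here are 40 genes of DNA repair, chosen by name for what they are known to do. The rule uses no measured value, but earlier results of these data were known when the genes were chosen. They cover the DNA glycosylases and the later steps of base excision repair, the replicative DNA polymerases with their clamp and clamp loader, mismatch repair, double-strand break repair, the kinases of the damage checkpoint, the Fanconi anaemia pathway and nucleotide excision repair. A probe was matched by RefSeq accession for 39 of the 40, the exception being Rad51c, and the brightest probe stood for a gene. All 39 passed the filter on low signals, among 15202 genes that passed it and 20145 that were matched.

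The cells came from a mouse embryonic stem (ES) cell line with a human RUNX1-ETO gene under a tetracycline-responsive promoter at 1 locus, with RUNX1 itself wild-type, and the labels give the strain as C57BL/6. RUNX1-ETO is the fusion protein of the t(8;21) translocation of acute myeloid leukaemia, and doxycycline (Dox, 0.1 microgram per ml) switches it on. Every group carried the transgene, so that induced and uninduced cells differed in Dox, and Dox without the transgene is not analysed here. The cells were made in culture and are models of embryonic stages. Haemogenic endothelium (HE), the endothelial cells that give rise to blood, HE2, the later cells that have acquired CD41 during the endothelial-haematopoietic transition, and CD41+KIT+Tie2- progenitors were sorted on day 2 of blast culture after Dox on day 1. Myeloid progenitors were CD41+KIT+ cells seeded with cytokines on day 2 and, where induced, kept with Dox for 12 h. There were 3 arrays with and 3 without Dox for HE, HE2 and myeloid progenitors, and 2 with and 2 without for progenitors. The labels call them biological replicates, except that induced myeloid array 3 is called both biological and technical. An additional array of uninduced progenitors, called technical, took part in the normalization but not in the fit.

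In base excision repair a glycosylase removes a damaged or misplaced base, APEX1 cuts the backbone there, and a polymerase and a ligase restore the strand. Mismatch repair corrects errors left by the replicative polymerases, homologous recombination mends broken chromosomes from the sister copy, and the Fanconi anaemia proteins act on crosslinks between strands. Many of these genes serve DNA replication as well, among them the polymerase delta and epsilon subunits, PCNA, the RFC clamp loader, FEN1 and LIG1, and are known to be expressed most in dividing cells. In human t(8;21) leukaemia, lower expression of repair genes has been linked to RUNX1-ETO.

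Levels are log2 intensities after background correction and quantile normalization, and a difference of 1 on this scale is 2-fold. They compare a probe between arrays and not genes with each other. Between 48.8 and 78.4% of the spots of an array were well above background, no spot was saturated, and the probes of all members were well above background on all 22 arrays of the fit apart from Brca1 and Chek1, which were so on 21 each. As a check of the labels, Runx1t1, the mouse gene whose human counterpart is the ETO part of the fusion, rose with Dox by 1.24 and 2.08 in HE and HE2 and by 3.96 and 2.06 in progenitors and myeloid progenitors. Over the 15163 other genes, 4 arrays deviated together from their group means, namely array 2 of uninduced and of induced HE, array 2 of uninduced HE2 and array 3 of induced HE2, with correlations between their deviations of 0.595 to 0.796. Their correlations with the other HE and HE2 arrays were between -0.626 and -0.012, and those among the other arrays between -0.123 and 0.611. Deviations from a group mean cancel within the group, so that the other arrays shift against the 4. These ranges therefore do not show whether other pairs deviated together on their own. Some members were low on all 4. Ercc1, which codes for part of the endonuclease that cuts beside a lesion, was at 9.33, 8.98, 9.37 and 8.20 on them, compared with 10.50 to 11.37 on the other HE and HE2 arrays. The cause was not tested, and results that rest on these arrays are given with and without them.

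With Dox the repair genes were more often lower than higher in HE, HE2 and myeloid progenitors, and no member rose in any stage. At an adjusted P of 0.05 or less (limma, Benjamini-Hochberg over all genes tested), 9 of the 39 fell in HE, 12 in HE2 and 9 in myeloid progenitors, and 0 in progenitors. Among all genes tested, 6.62, 6.76, 4.3 and 1.48% fell in these stages by the same rule, and 9.03, 10.4, 9.49 and 4.05% rose. In HE 33 of 39 members were below 0, with a median log2 change of -0.43 compared with -0.01 over all genes. In HE2 35 were below 0 and the median was -0.53, compared with -0.03. In myeloid progenitors 33 were below 0 and the median was -0.40, compared with -0.02. In progenitors 21 were below 0 and 18 above, with a median of -0.10 compared with -0.04. The induced arrays lay below the uninduced ones without overlap for 13 members in HE (11% of all genes), 17 in HE2 (15.2%), 26 in myeloid progenitors (22.7%) and 11 in progenitors (26.4%), and above them for 0 (14.2%), 0 (17%), 1 (23.9%) and 5 (22.6%). The changes were modest, and by the rule of the study's methods, 2-fold or more with P no higher than 0.001, 0 members were called in the 4 stages by limma, whereas in HE, HE2, myeloid progenitors and progenitors 2.39, 2.05, 1.18 and 0.704% of all genes were called lower and 4.7, 5.17, 5.13 and 3.03% higher. At an unadjusted P below 0.05, 17 members were lower in HE, and the share of all genes at this P is not given here. RNA was measured in bulk, so that fewer cells of a kind and less RNA per cell cannot be told apart.

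**Figure D1:**
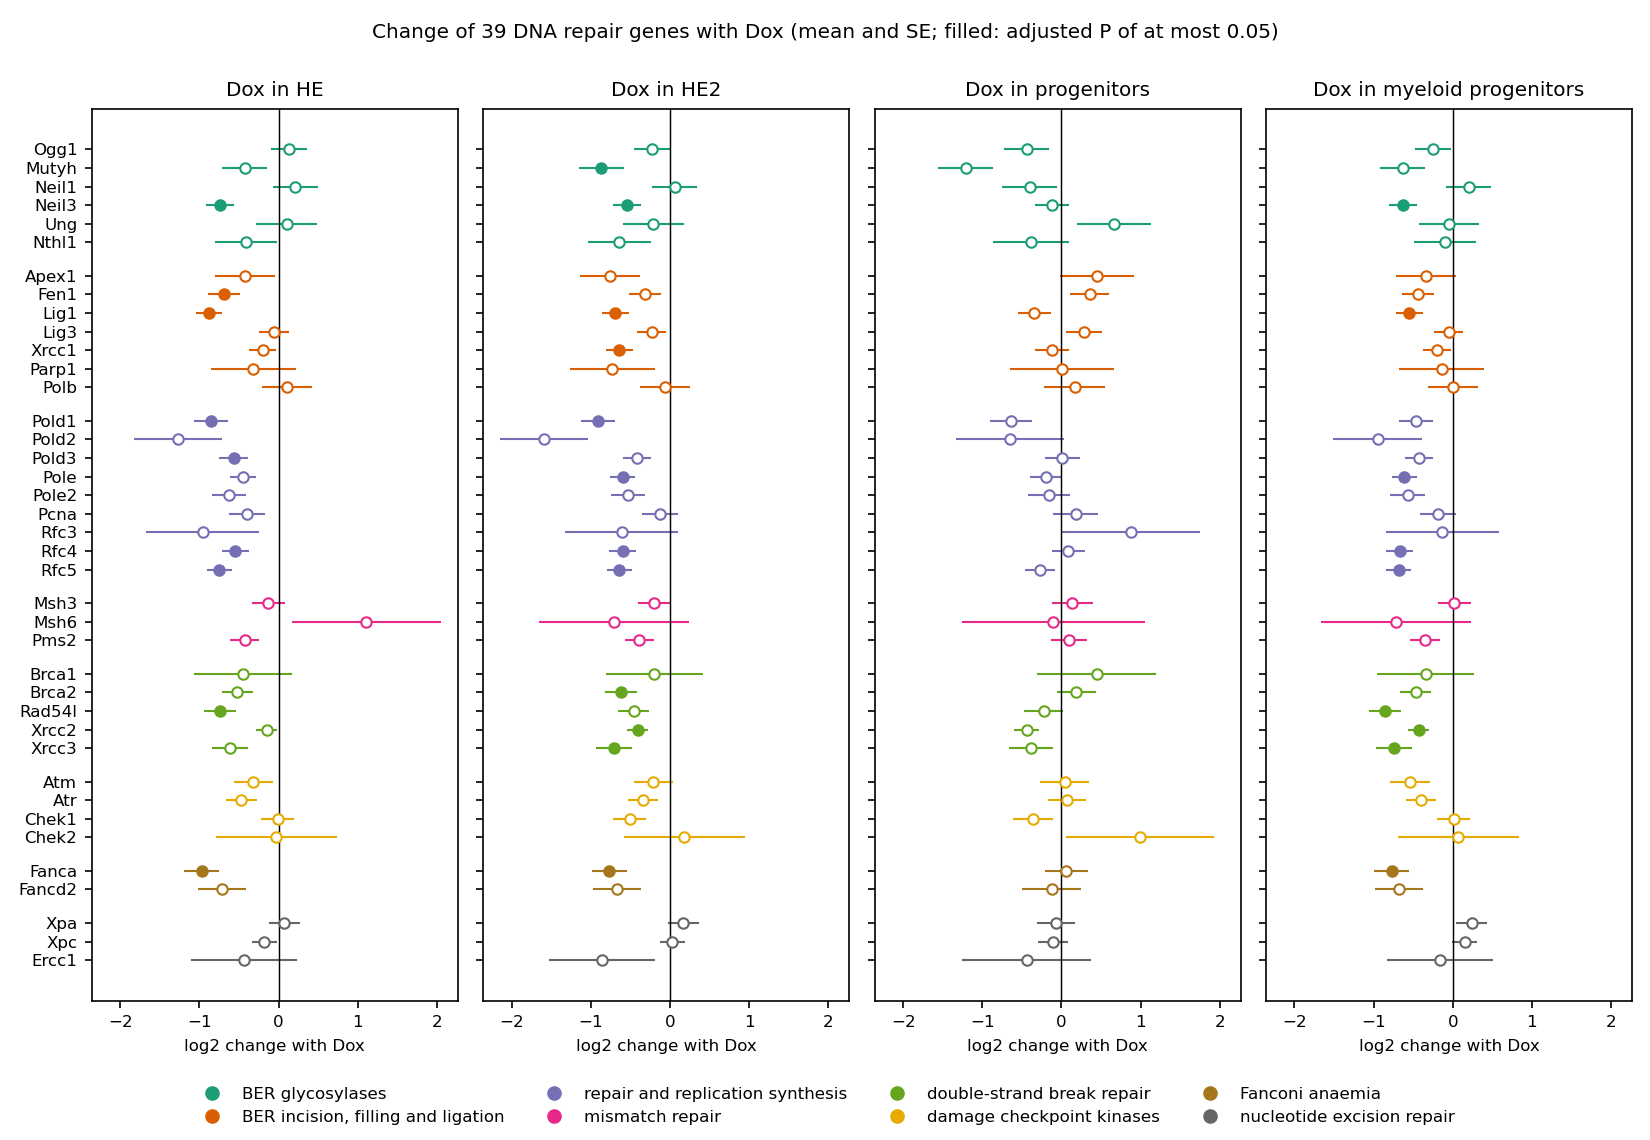
Log2 change with Dox (horizontal axis) of the 39 members (1 line each, ordered and coloured by role) in HE and HE2 cells, progenitors and myeloid progenitors. Points are the fitted changes, lines their standard errors and filled points those with an adjusted P up to 0.05. The filled points, 9, 12, 0 and 9 in the 4 panels, all lie below 0.

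The counts were less stable than the medians. In HE, between 6 and 12 members fell when 1 array was left out, 14 with the 4 deviating arrays as a block (9.64% of all genes) and 9 without them (5.65%), and 0 when the HE arrays were fitted alone. In HE2 the count went from 12 to 4 without uninduced array 2, 3 without uninduced array 3, 6 without induced array 1 or induced array 2, and 7 without induced array 3. It was 18 with the 4 arrays as a block (11.6% of all genes), 4 without them (Lig1, Pold2, Rfc5 and Xrcc3, with 3.79% of all genes) and 3 with HE2 fitted alone (Fanca, Lig1 and Pold1). In myeloid progenitors it went from 9 to 3, 4 and 3 without uninduced arrays 1, 2 and 3, and to 2 and 5 without induced arrays 1 and 3, and it was 19 with this stage fitted alone. For stages fitted alone the share of all genes is not given here, so that these counts cannot be set against it. Over all alternatives the member median stayed between -0.51 and -0.36 in HE, -0.60 and -0.38 in HE2, and -0.46 and -0.36 in myeloid progenitors. It lay between -0.23 and 0.03 in progenitors.

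**Figure D2:**
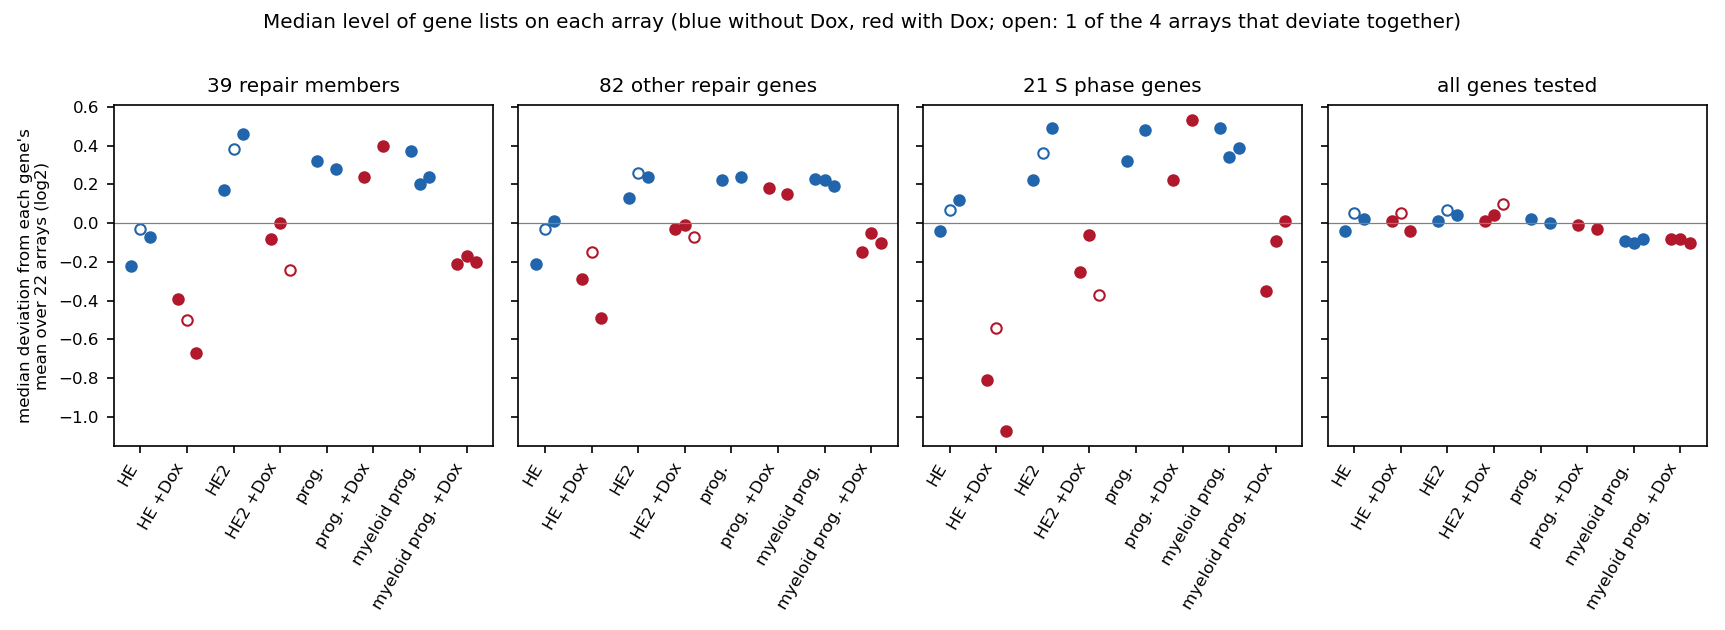
Median deviation of the genes of a list from their mean over the 22 arrays (vertical axis, log2), for each array (points) in the 8 groups. The lists are the 39 members, 82 other repair genes, 21 genes of S phase and proliferation (titled S phase genes) and all genes tested. Open points are the 4 arrays that deviate together. Blue points are without and red points with Dox. Among the members and the genes of S phase and proliferation, the induced HE, HE2 and myeloid progenitor arrays lie below the uninduced ones without overlap. The other repair genes overlap in HE, and all genes lie near 0.

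Of the 39 members, 15 fell with Dox in at least 1 stage. The groups of the 3 stages share no arrays, but the stages are not independent. HE and HE2 both hold some of the 4 deviating arrays, and the fit gave all stages the same estimate of the spread. Falls in all 3 were seen for 5 members. They were the glycosylase Neil3, the ligase Lig1, the clamp loader subunits Rfc4 and Rfc5, and Fanca of the Fanconi anaemia core complex. A further 5 fell in 2 of the stages and 5 in 1, while 24 fell in none. For these counts over several stages, and for those of the sign below, the share over all genes was not computed. The set of 5 depended on the processing. With 75th percentile scaling Rad54l and Rfc4 fell in myeloid progenitors and Rfc4 did not in HE, so that 0 members fell in all 3, and with HE fitted alone 0 fell there. Without the 4 deviating arrays Lig1 and Rfc5 of the 5 fell in HE2. The single calls held in 12 to 20 of 21 alternatives in HE, 10 to 21 of 21 in HE2 and 10 to 19 of 19 in myeloid progenitors. Below 0 in all 3 stages were 29 members, and 2 were above 0 in all 3. The promoters of the 5 that fell throughout are shown to locate the genes. Each runs from 250 bases before to 50 bases after the start site in RefSeq (GRCm38.p6), 5′ to 3′ on the strand of the gene. Capitals mark matches to TTTCCCGC, TTTCGCGC, TTTGCCGC or TTTGGCGC, octamers of the kind bound by E2F factors, which drive S phase genes, or to TGTGGT or TGCGGT, hexamers of the RUNX kind, on either strand.
Neil3 (chr8:53639016-53639315, minus strand): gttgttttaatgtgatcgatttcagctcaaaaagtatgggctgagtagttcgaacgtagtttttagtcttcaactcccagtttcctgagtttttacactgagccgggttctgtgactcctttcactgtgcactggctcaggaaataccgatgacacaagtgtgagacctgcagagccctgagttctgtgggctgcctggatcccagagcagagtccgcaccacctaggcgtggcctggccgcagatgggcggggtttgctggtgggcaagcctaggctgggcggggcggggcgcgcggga
Lig1 (chr7:13278576-13278875, plus strand): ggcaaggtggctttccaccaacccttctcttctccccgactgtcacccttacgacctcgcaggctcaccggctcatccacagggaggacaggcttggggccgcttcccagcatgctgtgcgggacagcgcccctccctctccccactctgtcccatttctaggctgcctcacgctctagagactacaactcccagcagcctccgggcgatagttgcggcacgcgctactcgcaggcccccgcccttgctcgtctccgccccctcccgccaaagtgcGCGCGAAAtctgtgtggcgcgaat
Rfc4 (chr16:23127681-23127980, minus strand): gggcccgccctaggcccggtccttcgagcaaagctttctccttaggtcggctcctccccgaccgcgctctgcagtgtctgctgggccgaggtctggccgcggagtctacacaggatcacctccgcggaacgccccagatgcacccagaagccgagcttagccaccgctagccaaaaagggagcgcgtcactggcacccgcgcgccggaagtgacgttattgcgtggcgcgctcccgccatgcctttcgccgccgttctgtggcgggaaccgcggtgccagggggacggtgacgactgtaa
Rfc5 (chr5:117388974-117389273, minus strand): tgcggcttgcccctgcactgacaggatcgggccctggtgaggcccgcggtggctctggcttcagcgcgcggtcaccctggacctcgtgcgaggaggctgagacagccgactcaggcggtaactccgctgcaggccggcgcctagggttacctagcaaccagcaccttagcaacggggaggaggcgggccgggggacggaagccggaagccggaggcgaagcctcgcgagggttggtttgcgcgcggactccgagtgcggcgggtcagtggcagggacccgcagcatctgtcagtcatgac
Fanca (chr8:123318527-123318826, minus strand): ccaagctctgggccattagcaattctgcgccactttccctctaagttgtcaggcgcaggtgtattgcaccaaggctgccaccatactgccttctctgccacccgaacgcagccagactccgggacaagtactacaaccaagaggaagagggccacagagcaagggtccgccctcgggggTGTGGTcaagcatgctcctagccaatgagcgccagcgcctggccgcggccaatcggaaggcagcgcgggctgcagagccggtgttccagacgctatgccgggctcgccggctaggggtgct

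Of these 5, the E2F type matched in Lig1 and the RUNX type in Fanca. Lig1 has 3 start sites in the table, and the window shown was picked because it is the one that holds a match. That match began 27 bases after the start site. The promoter table held 34 of the 39 members. A gene, among the members and among all, counted as matched if any of its start sites had a match. The E2F type matched in 10 of the 34 (29.4%), compared with 2.6% of all 27025 promoters, and the matches were in Nthl1, Lig1, Pold1, Pold3, Pole2, Rfc3, Msh3, Msh6, Brca2 and Chek2. It was in 4 of the 13 members that fell with Dox in some stage (30.8%) and 6 of the 21 others (28.6%). The RUNX type matched in 11 of the 34 (32.4%), compared with 25% of all promoters. It was in 5 of the 13 that fell (38.5%) and 6 of the 21 others (28.6%). A match describes the letters of the window and does not show binding.

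Among the glycosylases, Neil3 fell in HE, HE2 and myeloid progenitors and Mutyh fell in HE2. Neil3, which removes oxidized bases and is known from dividing cells, was at 9.32, 9.32 and 9.58 in uninduced HE and at 8.43, 8.99 and 8.57 in induced HE. In HE2 it was at 10.03, 10.22 and 10.60 without and 9.80, 9.58 and 9.85 with Dox, and in myeloid progenitors at 10.18, 10.17 and 10.15 without and 9.38, 9.61 and 9.64 with it. The induced arrays lay below the uninduced ones without overlap in each of the 3 stages. In progenitors the ranges overlapped, at 10.40 and 10.76 without and 10.45 and 10.47 with Dox. The log2 changes were -0.74 (SE 0.177, limma adjusted P = 0.00669), -0.54 (SE 0.177, 0.0428), -0.12 (SE 0.217, 0.805) and -0.63 (SE 0.177, 0.0229) in the order HE, HE2, progenitors and myeloid progenitors. The HE2 change depended on single arrays and passed without uninduced array 1 (-0.67). It did not pass without uninduced arrays 2 (-0.57) and 3 (-0.38) or induced arrays 1 (-0.57), 2 (-0.46) and 3 (-0.59).

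Mutyh, which removes adenine paired with oxidized guanine, was at 10.97, 11.73 and 11.11 in uninduced and 10.50, 9.99 and 10.71 in induced HE2, and fell by 0.87 (SE 0.285, limma adjusted P = 0.0423). In progenitors it was at 11.34 and 11.68 without and at 10.75 and 9.85 with Dox, a change of -1.21 (SE 0.349) with an adjusted P of 0.0505, just above the threshold. The lower of the induced arrays, array 2, is on slide 3, and the other 3 arrays are on slides 1 and 2. The additional uninduced array, on slide 3 as well and outside the fit, was at 10.73. That is below both uninduced arrays of the fit and close to induced array 1. The changes of Mutyh in HE and myeloid progenitors were -0.43 and -0.63 and did not pass. The other glycosylases Ogg1, Neil1, Ung and Nthl1 passed in no stage, with changes between -0.64 and 0.66.

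Of the later steps of base excision repair, Lig1 fell in 3 stages, and Fen1 and Xrcc1 in 1 each. Lig1, the ligase that joins Okazaki fragments and closes long repair patches, was at 14.54, 14.82 and 14.52 in uninduced HE and at 13.37, 14.10 and 13.79 with Dox. In HE2 it was at 14.69, 14.93 and 14.90 without and 14.13, 14.08 and 14.25 with Dox, and in myeloid progenitors at 14.38, 14.60 and 14.45 without and 13.84, 13.86 and 14.08 with it. The groups did not overlap in these 3 stages, nor in progenitors, where the arrays were at 14.95 and 15.10 without and 14.76 and 14.61 with Dox. The changes were -0.88 (SE 0.169, limma adjusted P = 0.00134), -0.69 (SE 0.169, 0.00832), -0.34 (SE 0.207, 0.376) and -0.55 (SE 0.169, 0.0369) in the same order. The call held in 20 of 21 alternatives in HE, 21 of 21 in HE2 and 13 of 19 in myeloid progenitors.

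Fen1, the nuclease that trims DNA flaps, was at 13.86, 14.28 and 14.07 in uninduced HE and 13.49, 13.73 and 12.92 in induced HE, and fell by 0.69 (SE 0.203, limma adjusted P = 0.0255). Its changes in HE2 and myeloid progenitors, -0.32 and -0.44, did not pass. Xrcc1, the scaffold of single-strand break repair, was at 13.41, 13.67 and 13.59 in uninduced and 13.36, 12.76 and 12.64 in induced HE2, and fell by 0.64 (SE 0.172, adjusted P = 0.0156), whereas it changed by -0.20 in HE and in myeloid progenitors. Lig3, the ligase that works with XRCC1, changed by -0.23 to 0.29. Apex1, Parp1 and Polb passed in no stage. Parp1 and Polb were lower on each of the 4 deviating arrays than on any other HE or HE2 array, and with the 4 as a block Apex1 (-0.76, adjusted P = 0.0255) and Parp1 (-0.73, 0.0312) fell in HE2, as did Nthl1 (-0.64, 0.0307) and Ercc1 (-0.86, 0.00525).

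The replicative polymerases and the clamp loader are the largest group. Of these 9 genes, 4 fell in HE (Pold1, Pold3, Rfc4 and Rfc5), 4 in HE2 (Pold1, Pole, Rfc4 and Rfc5) and 3 in myeloid progenitors (Pole, Rfc4 and Rfc5), and all 9 were below 0 in each of these stages. The medians of the 9 were -0.63, -0.60 and -0.57, compared with -0.16 in progenitors.

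Rfc5, a subunit of the complex that loads PCNA on DNA, was at 13.62, 13.91 and 13.61 in uninduced HE, and 12.82, 13.35 and 12.72 with Dox. In HE2 it was at 14.15, 14.31 and 14.24 without and 13.47, 13.73 and 13.58 with Dox, and in myeloid progenitors at 14.27, 14.22 and 14.25 without and 13.48, 13.62 and 13.61 with it. Every induced array lay below every uninduced array in the 3 stages, and also in progenitors (14.54 and 14.39 without, 14.17 and 14.22 with Dox). The changes were -0.75 (SE 0.158, limma adjusted P = 0.00262), -0.64 (SE 0.158, 0.00872), -0.27 (SE 0.193, 0.472) and -0.68 (SE 0.158, 0.00671). Rfc4, another subunit, was at 13.14, 13.28 and 13.26 without and 12.53, 12.89 and 12.60 with Dox in HE. It was at 13.54, 13.74 and 13.96 against 13.19, 13.21 and 13.05 in HE2, and at 14.16, 14.16 and 14.29 against 13.36, 13.58 and 13.66 in myeloid progenitors. These groups did not overlap either, whereas the progenitor arrays did, at 13.64 and 13.85 without and 13.52 and 14.15 with Dox. The changes of Rfc4 were -0.55 (adjusted P = 0.0325), -0.60 (0.0206), 0.09 (0.861) and -0.67 (0.0118). In HE it no longer passed without any 1 of uninduced arrays 1, 2 and 3 and induced arrays 1 and 3. With the slide as a block the change of Rfc4 in progenitors was -0.16 (SE 0.214). Rfc3 ranged from 8.31 to 11.80 within HE and HE2, was low on the 4 deviating arrays, and passed in no stage. Pcna, the clamp itself, changed by -0.40 to 0.18 and passed in no stage.

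Pold1, the catalytic subunit of polymerase delta, was at 13.19, 13.30 and 13.11 in uninduced HE and at 11.82, 12.53 and 12.67 in induced HE. In HE2 it was at 13.28, 13.93 and 13.81 without and 12.81, 12.68 and 12.82 with Dox. The groups did not overlap, and Pold1 fell by 0.86 (SE 0.215, limma adjusted P = 0.00965) and 0.91 (SE 0.215, 0.00654). Its changes of -0.64 in progenitors and -0.47 in myeloid progenitors did not pass, although the induced arrays lay below the uninduced ones there as well. Pold3, an accessory subunit, fell by 0.57 in HE (adjusted P = 0.038), and Pole, the catalytic subunit of polymerase epsilon, fell by 0.60 in HE2 (0.0164) and 0.61 in myeloid progenitors (0.0165). Pole2, the next subunit of polymerase epsilon, had changes of -0.63, -0.53 and -0.57 in HE, HE2 and myeloid progenitors and did not pass.

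Pold2, which joins the subunits of polymerase delta, had the lowest changes of the members in HE and HE2 and did not pass, and its arrays were far apart. It was at 11.69, 10 and 11.91 in uninduced and 10.23, 9.21 and 10.33 in induced HE, where the second array of each group is among the 4 that deviate. In HE2 it was at 11.89, 10.61 and 12.16 without and 10.50, 10.84 and 8.54 with Dox, where uninduced array 2 and induced array 3 are. Among the remaining arrays, induced lay below uninduced in both stages, and so it did among the 4. The changes were -1.27 (SE 0.56, limma adjusted P = 0.15) and -1.59 (SE 0.56, 0.0588). With the 4 arrays as a block they were -1.27 (SE 0.237, 0.000824) and -1.59 (SE 0.237, 0.000128), past P of 0.001 and 2-fold. Without the 4 arrays they were -1.51 (SE 0.27, 0.00197) and -1.35 (SE 0.27, 0.00642). Both of these treatments were chosen after the values were seen. In myeloid progenitors Pold2 was at 10.73, 10.36 and 10.91 without and 9.45, 10.10 and 9.60 with Dox, which do not overlap. The change there was -0.95 (SE 0.56, limma adjusted P = 0.324) and did not pass. With that stage fitted alone it passed (SE 0.211, 0.0162).

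**Figure D3:**
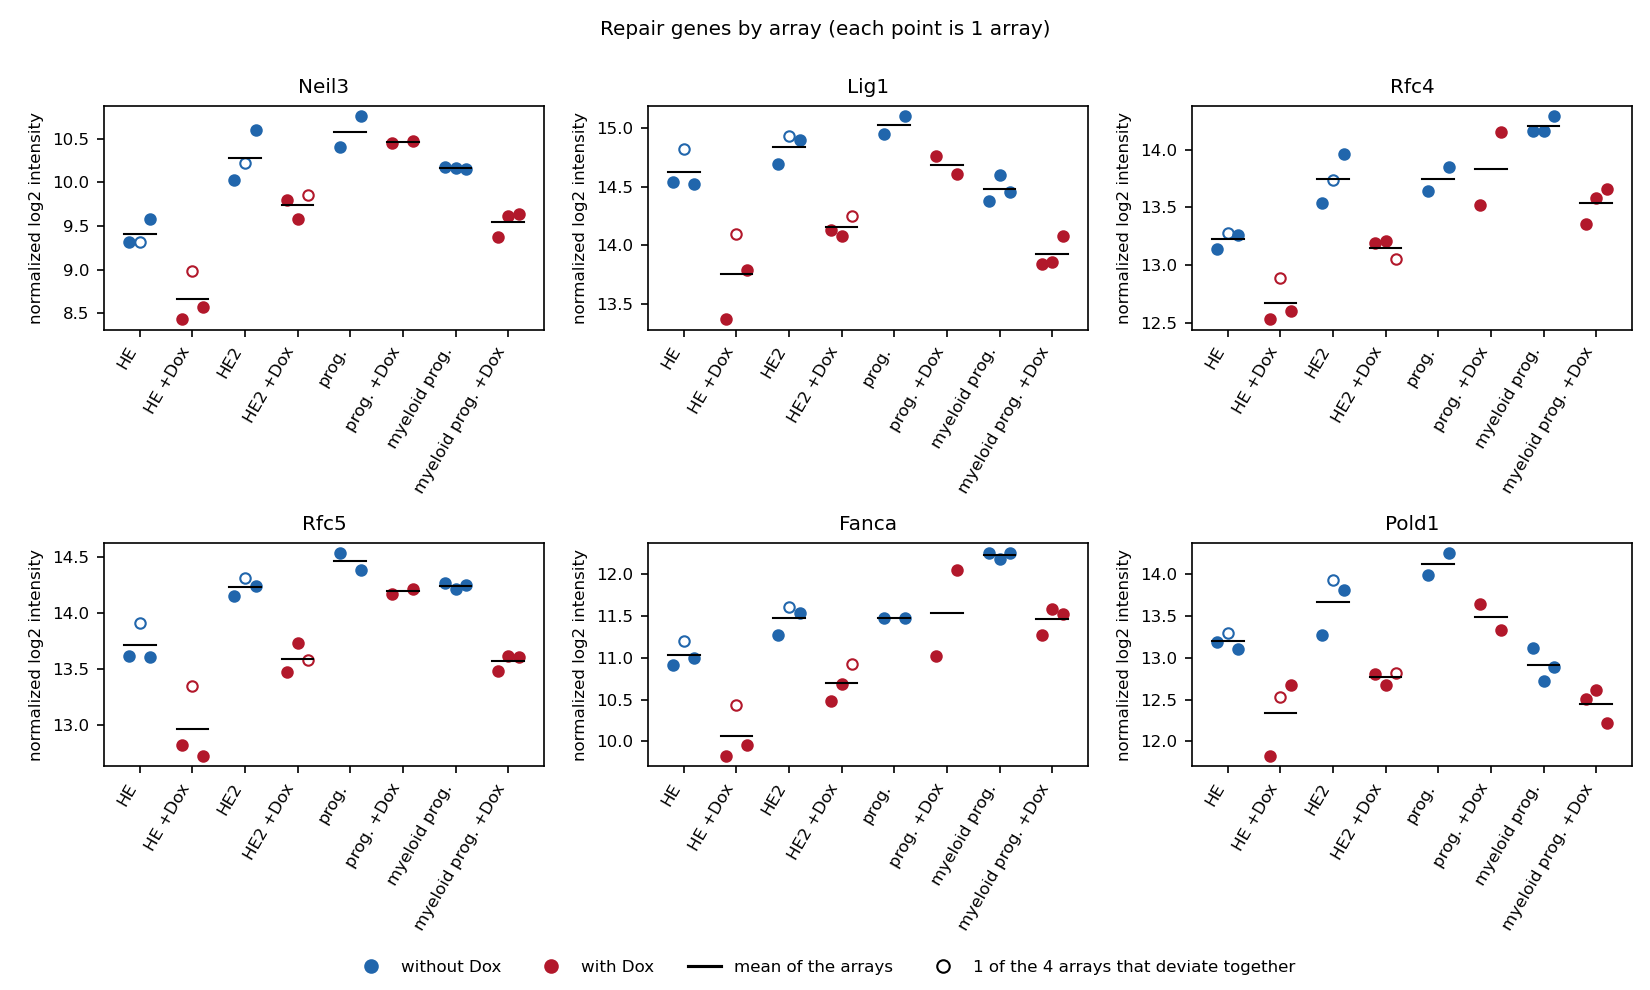
Log2 intensity (vertical axis) of Neil3, Lig1, Rfc4, Rfc5, Fanca and Pold1 on each array (points) of the 8 groups, with the group means as short lines, in blue without and red with Dox. Open points are the 4 arrays that deviate together. In HE, HE2 and myeloid progenitors the induced arrays of all 6 genes lie below the uninduced ones, and in progenitors Neil3, Rfc4 and Fanca overlap.

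In double-strand break repair, 1 of the 5 measured members fell in HE, 3 in HE2 and 3 in myeloid progenitors. Rad54l, a DNA-dependent ATPase of homologous recombination, fell by 0.74 in HE (limma adjusted P = 0.0159) and 0.86 in myeloid progenitors (0.00705). In the latter it was at 10.99, 10.82 and 11.12 without and at 10.05, 10.15 and 10.16 with Dox, which do not overlap. Xrcc3, which acts in homologous recombination, was at 10.75, 10.52 and 10.62 without and 9.64, 10.11 and 9.91 with Dox in myeloid progenitors and fell by 0.74 (0.0339) there and by 0.71 in HE2 (0.0367). Xrcc2, which acts in the same pathway, fell by 0.41 in HE2 (0.0378) and 0.43 in myeloid progenitors (0.0344). These calls were lost in 11 of 21 and 9 of 19 alternatives, and a second probe of Xrcc2 changed by -0.16 (SE 0.237) and -0.48 (SE 0.237). Brca2, a tumour suppressor of that pathway, fell by 0.62 in HE2 (0.0399). Brca1, which acts early in the same pathway, ranged from 5.10 to 8.31 over the arrays, with a standard error of 0.614 in the stages with 3 arrays a group, and passed in no stage.

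Fanca, part of the Fanconi core complex, was at 10.92, 11.20 and 11 in uninduced HE and at 9.82, 10.43 and 9.95 with Dox. In HE2 it was at 11.28, 11.61 and 11.54 without and 10.48, 10.69 and 10.93 with Dox, and in myeloid progenitors at 12.26, 12.18 and 12.26 without and 11.27, 11.59 and 11.53 with it. None of these groups overlapped. In progenitors the uninduced arrays were at 11.48 and 11.48 and the induced ones at 11.02 and 12.05, on either side. The higher, induced array 2, is on slide 3, where the additional uninduced array, outside the fit, was at 11.87. The changes of Fanca were -0.97 (SE 0.221, limma adjusted P = 0.00493), -0.77 (SE 0.221, 0.0211), 0.06 (SE 0.271, 0.93) and -0.77 (SE 0.221, 0.025). With the slide as a block the change in progenitors was -0.38 (SE 0.256). In HE Fanca passed P of 0.001 and 2-fold without uninduced array 1 (-1.03) and without induced array 2 (-1.15, when Lig1 did as well at -1.05), and Pold1 did without induced array 3 (-1.02). In HE2 Pold1 did without uninduced array 1 (-1.10). Fancd2, which the core complex marks with ubiquitin, had changes of -0.72, -0.67 and -0.68 in HE, HE2 and myeloid progenitors, each with an SE of 0.304, and did not pass.

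The checkpoint kinases, mismatch repair and nucleotide excision repair held no member that passed in any stage in the fit of all groups. With myeloid progenitors fitted alone, Msh6 (-0.72, limma adjusted P = 0.00444), Atm (-0.54, 0.0332) and Pms2 (-0.35, 0.0432) passed there. Atr, the kinase that answers stalled replication, changed by -0.47, -0.34 and -0.40 in HE, HE2 and myeloid progenitors, with the groups not overlapping. Atm, the kinase that answers double-strand breaks, changed by -0.54 in myeloid progenitors, and Chek1, a target of ATR, by -0.51 in HE2. Chek2 was low on the 4 deviating arrays and changed by -0.03 and 0.18 in HE and HE2. In mismatch repair, Pms2 changed by -0.43, -0.39 and -0.35 and Msh3 by -0.13, -0.20 and 0.02. The nucleotide excision repair gene Xpa, whose product checks the lesion, changed by 0.07, 0.17 and 0.24, and Xpc, the damage sensor, by -0.18, 0.03 and 0.15.

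Msh6, which takes part in the recognition of mismatches, turned on 1 array. Uninduced HE array 3 was at 7.66, compared with 13.33 and 13.64 on the other uninduced HE arrays and 12.14 to 14.18 on all other HE and HE2 arrays. The induced HE arrays were at 12.81, 13 and 12.14, and the change was 1.11 (SE 0.945). Without that array it was -0.84 (SE 0.244, limma adjusted P = 0.0289). In HE2 and myeloid progenitors it was -0.71 and -0.72 with an SE of 0.945, and the groups did not overlap.

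Whether the response to Dox differed between stages was tested by interaction terms. By limma 0 members passed an adjusted P of 0.05 or P of 0.001 with 2-fold in any of them. Among all genes, the response was higher at that adjusted P in 0.046% and lower in 0.0987% for progenitors against HE2, in 0.368 and 0.52% for HE2 against HE and in 4.13 and 2.74% for myeloid progenitors against HE. By P of 0.001 and 2-fold it was 0.237 and 0.408%, 0.625 and 0.71%, and 2.96 and 1.76%. Taken without adjustment, 4 members had a P below 0.05 for progenitors against HE2 (Brca2 0.81, Fanca 0.83, Fen1 0.69 and Rfc4 0.69, each below 0 in HE2 and at 0.06 to 0.36 in progenitors, where none passed), 0 for HE2 against HE and 0 for myeloid progenitors against HE. The member median of the interaction was 0.41 for progenitors against HE2, with 33 of 39 above 0, compared with -0.02 over all genes. It was -0.05 for HE2 against HE and 0.08 for myeloid progenitors against HE. In progenitors 0 members rose and 3 fell at an unadjusted P below 0.05, namely Mutyh, Pold1 (-0.64) and Xrcc2 (-0.44). Shares of all genes at an unadjusted P are not given here. The progenitor stage had 2 arrays a group, and induced array 2 is on the slide of the myeloid arrays. With the slide as a block the changes of Fanca and Rfc4 in progenitors were -0.38 and -0.16, in place of 0.06 and 0.09. Without induced array 1, which leaves array 2 to stand for the group, Ung (1.87, adjusted P = 0.000455) rose and Mutyh (-1.66, 0.0117) fell with Dox, and Ung (2.09, 0.00332) and Fanca (1.35, 0.0284) differed from HE2.

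Other repair genes also fell more often than they rose in HE, HE2 and myeloid progenitors. Of 82 further genes, 3 rose and 14 fell in HE at an adjusted P up to 0.05, 1 rose and 13 fell in HE2, 1 rose and 0 fell in progenitors, and 0 rose and 11 fell in myeloid progenitors. Among all genes, 9.03, 10.4, 4.05 and 9.49% rose and 6.62, 6.76, 1.48 and 4.3% fell in these stages, in the same order. The medians of the further repair genes were -0.27, -0.27, -0.10 and -0.28. By P of 0.001 and 2-fold, Mre11a, the nuclease that starts the trimming of broken ends, fell by 1.07 in HE. Those that rose in HE were Neil2, Ddb2 (0.65) and Rev3l (0.50), named after their values were seen. Neil2, a glycosylase of oxidized bases, had the largest rise of the 3. It was at 8.49, 9.21 and 8.37 in uninduced and 10.41, 10.85 and 10.63 in induced HE, at 8.21, 8.60 and 8.43 compared with 10.29, 10.07 and 11.38 in HE2, and at 7.45 and 7.78 compared with 9.02 and 10.01 in progenitors. It rose by 1.94, 2.17 and 1.90 in these stages, whereas in myeloid progenitors the change was 0.73 (SE 0.304, limma adjusted P = 0.134), and the difference from HE had an adjusted P of 0.115.

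Genes of S phase and proliferation fell in the same stages. Of 21 that are not members, 14 fell in HE, 10 in HE2, 5 in myeloid progenitors and 0 in progenitors, with medians of -0.91, -0.65, -0.54 and 0.01, and all 21 were below 0 in HE, HE2 and myeloid progenitors. Among all genes, at an adjusted P up to 0.05, 6.62, 6.76, 4.3 and 1.48% fell in these stages, in the same order. For rises the shares were 9.03, 10.4, 9.49 and 4.05%. By P of 0.001 and 2-fold, E2f1 (-1.21), Tk1 (-1.41), Cdc6 (-1.12) and Gins1 (-1.07) fell in HE, Tk1 (-1.21) in HE2 and Ccne1 (-1.02) in myeloid progenitors. Of 18 targets of p53, the transcription factor of the damage response, 1 rose and 1 fell in HE, 4 rose and 1 fell in HE2, 0 changed in progenitors, and 2 rose and 2 fell in myeloid progenitors. Among them Btg2 rose by 1.05 in HE2 and fell by 1.39 in myeloid progenitors, where Gadd45a fell by 1.06 and Plk2 rose by 1.16. The part of dividing cells in the members' changes was not tested.

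The summed levels of markers of other cell types also differed between induced and uninduced arrays, and the groups named here did not overlap. The summed level of 6 erythroid genes was between 15.10 and 15.45 (log2) without and 17.42 and 18.42 with Dox in HE, and between 16.26 and 16.69 and 18.48 and 18.75 in HE2. That of 6 heart and smooth muscle genes was between 16.67 and 17.86 without and 15.16 and 15.60 with Dox in HE, and between 14.90 and 16.69 and 13.53 and 13.63 in HE2. That of 4 mast cell genes was at 9.70 to 10.31 without and 14.33 to 14.75 with Dox in HE, and at 9.64 to 10.56 and 13.39 to 15.09 in myeloid progenitors. Hdc (5.31 and 5.43) and Cpa3 (1.32 and 3.27) rose there, whereas Tpsb2 (0.19 and -0.17) and Mcpt4 (-0.17 and -0.22) did not pass. In the latter 6 endothelial genes were at 12.98 to 13.54 without and 15.30 to 15.55 with Dox, and 5 megakaryocyte genes at 15.06 to 15.54 and 13.83 to 14.08. The part of these changes in those of the repair genes was not tested.

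From HE to HE2, repair genes were more often higher. Without Dox 5 of 39 rose at an adjusted P up to 0.05, compared with 4.76% of all genes, and 0 fell (5.85%). They were Neil3 (0.88), Brca2 (0.85), Atr (0.61), Pole (0.55) and Rfc5 (0.52). With Dox 6 rose (3.1% of all genes) and 0 fell (2.57%), namely Neil3 (1.08), Rad54l (0.82), Brca2 (0.75), Atr (0.74), Pold3 (0.69) and Rfc5 (0.63). The 2 steps share no arrays, but each holds some of the 4 deviating arrays, and the fit gave both the same estimate of the spread. The member median was 0.40 in each, with 35 and 33 of 39 above 0. The HE2 arrays lay above the HE arrays without overlap for 14 members in each, compared with 13.4 and 9.62% of all genes. Neil3 passed P of 0.001 and 2-fold with Dox (1.62% of all genes did upwards and 1.47% downwards), at 8.43, 8.99 and 8.57 in induced HE and 9.80, 9.58 and 9.85 in induced HE2, and did not do so without induced HE array 1 (0.96). Without induced HE array 2, Rad54l passed as well (1.00).

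The counts of this step moved with the arrays. Without Dox 3, 1, 2 and 2 members passed without uninduced HE arrays 1 and 3 and uninduced HE2 arrays 2 and 3, and 10 with the 4 deviating arrays as a block. By P of 0.001 and 2-fold 0 members were called without Dox (2.39% of all genes upwards and 2.67% downwards), and Brca2 was called without uninduced HE array 2 (1.04) and Neil3 without uninduced HE2 array 1 (1.01). With Dox 3 and 1 passed without induced HE arrays 1 and 3, and 3, 2 and 3 without induced HE2 arrays 1, 2 and 3. Msh6 had a change of 2.50 without Dox, which was 0.55 (SE 0.244, limma adjusted P = 0.214) without uninduced HE array 3.

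From HE2 to progenitors without Dox no member passed at an adjusted P up to 0.05 by limma, 0 had an unadjusted P below 0.05, and the median was 0.01 (2.78% of all genes rose and 5.39% fell). With Dox 5 rose (4.38% of all genes) and 0 fell (9.75%), namely Fanca (0.84), Brca2 (0.72), Neil3 (0.71), Rfc4 (0.68) and Rfc5 (0.60), and the median was 0.53. The induced arrays of this step lie on several slides. With the slide as a block 1 member passed and with the scan day 0. Without induced progenitor array 2 it was 0, and without induced HE2 array 3 it was 2. By P of 0.001 and 2-fold 0 members were called with Dox (2.02% of all genes upwards and 5.34% downwards) or without (1.78 and 3.62%). Without induced progenitor array 1, Fanca (1.35), Rfc4 (1.00) and Ung (2.05) passed P of 0.001 and 2-fold.

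**Figure D4:**
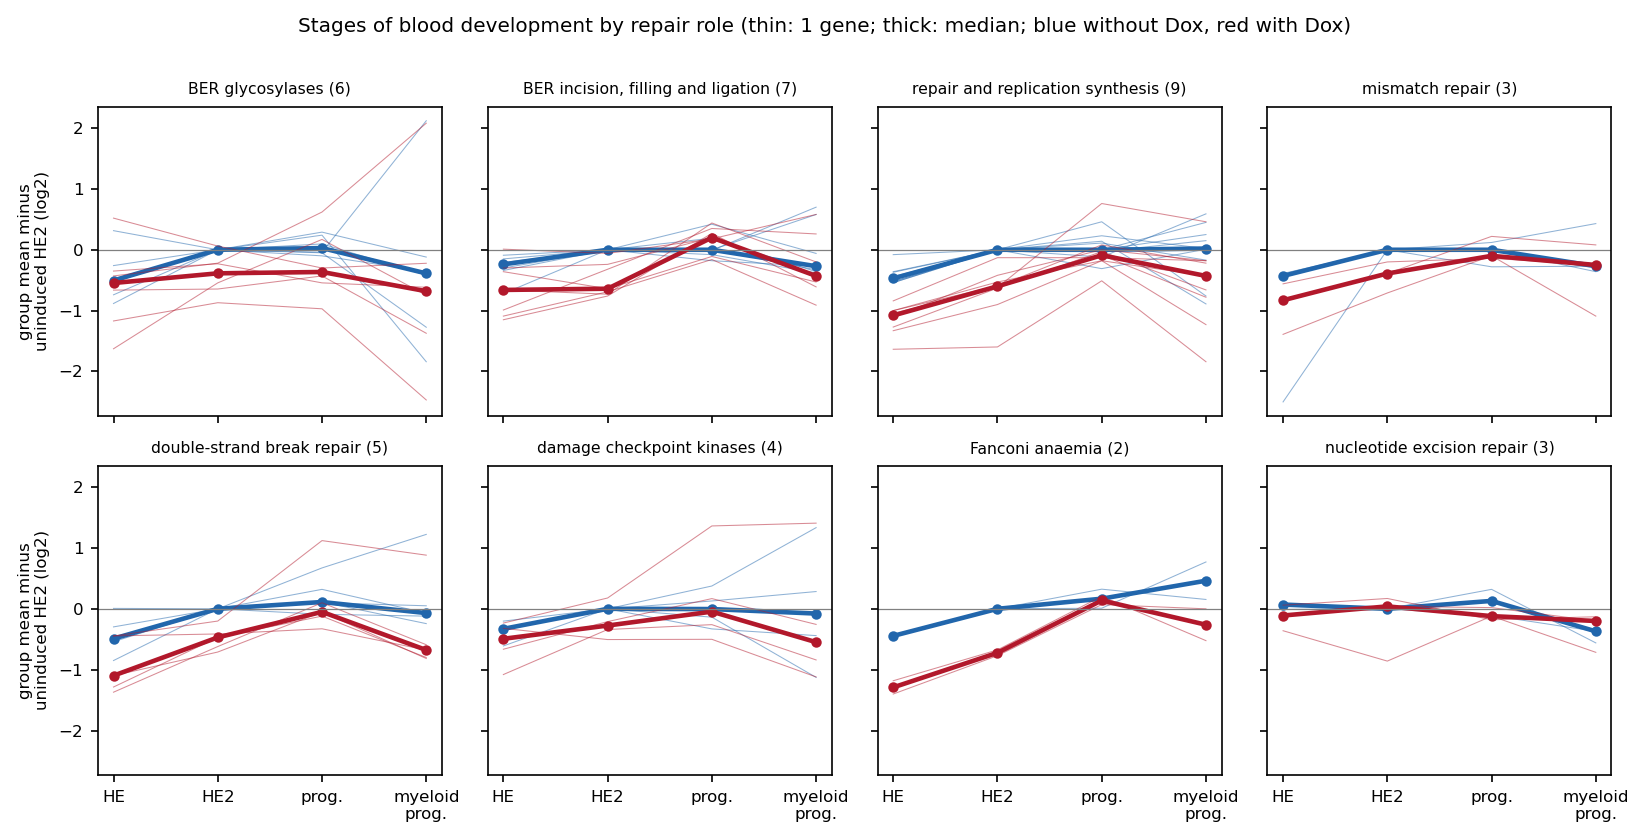
Group mean of each member minus its mean in uninduced HE2 (vertical axis, log2) at the 4 stages (horizontal axis), without (blue) and with Dox (red), with a panel for each role. Thin lines are genes and thick lines their medians. For the 9 genes of repair and replication synthesis the median with Dox lies below that without in HE, HE2 and myeloid progenitors and near it in progenitors, and in mismatch repair the low point in uninduced HE is Msh6 on array 3.

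From progenitors to myeloid progenitors without Dox, Ung rose and Mutyh and Pold1 fell past P of 0.001 and 2-fold, which 7% of all genes passed upwards and 6.93% downwards. Ung, the glycosylase that removes uracil, was at 14.27 and 14.17 in progenitors and 16.29, 16.59 and 16.27 in myeloid progenitors, a change of 2.16 (SE 0.426). Mutyh was at 11.34 and 11.68 compared with 9.80, 9.19 and 9.30, a change of -2.08 (SE 0.318). Pold1 was at 13.99 and 14.26 compared with 13.12, 12.72 and 12.89, a change of -1.22 (SE 0.241). At an adjusted P up to 0.05, 3 members rose (Ung, Fanca 0.76 and Fen1 0.71, with 13.9% of all genes) and 6 fell (Mutyh, Nthl1 -1.22, Pold1, Chek1 -0.99, Lig1 -0.55 and Xpc -0.48, with 19.2%). The member median was -0.22 compared with -0.12 over all genes.

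All myeloid progenitor arrays are on slide 3, scanned on another day than slides 1 and 2, and the uninduced progenitor arrays of the fit are on slides 1 and 2. Only induced progenitor array 2 and the additional uninduced array link slide 3 to the rest. Ung was at 16.10 and 15.97 on those arrays, as high as in myeloid progenitors, and between 13.45 and 14.50 on every array of slides 1 and 2. With the slide as a block the change of Ung was -0.13 (limma adjusted P = 0.928), that of Mutyh -1.15 (0.341) and that of Pold1 -0.81 (0.4), and 0 members passed. With the scan day they were -0.26, -1.17 and -0.92, and again 0 passed. With the additional array counted as a replicate, Ung changed by 1.58 (adjusted P = 0.0131), Mutyh by -1.82 and Pold1 by -1.08. Without uninduced progenitor array 2, Mutyh and Chek1 (-1.32) were the members past P of 0.001 and 2-fold. At an adjusted P up to 0.05, 3 and 4 members passed without uninduced progenitor arrays 1 and 2, and 5 and 4 without uninduced myeloid arrays 1 and 3. For this step the slide and the stage can be told apart only through these 2 linking arrays, of which the fit holds induced array 2. Within the stages, the changes with Dox of Neil3, Lig1, Rfc4, Rfc5 and Fanca kept their call with the slide as a block in HE and HE2, with changes between -1.02 and -0.60. The myeloid progenitor arrays share a slide, so that the block could not alter their changes.

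**Figure D5:**
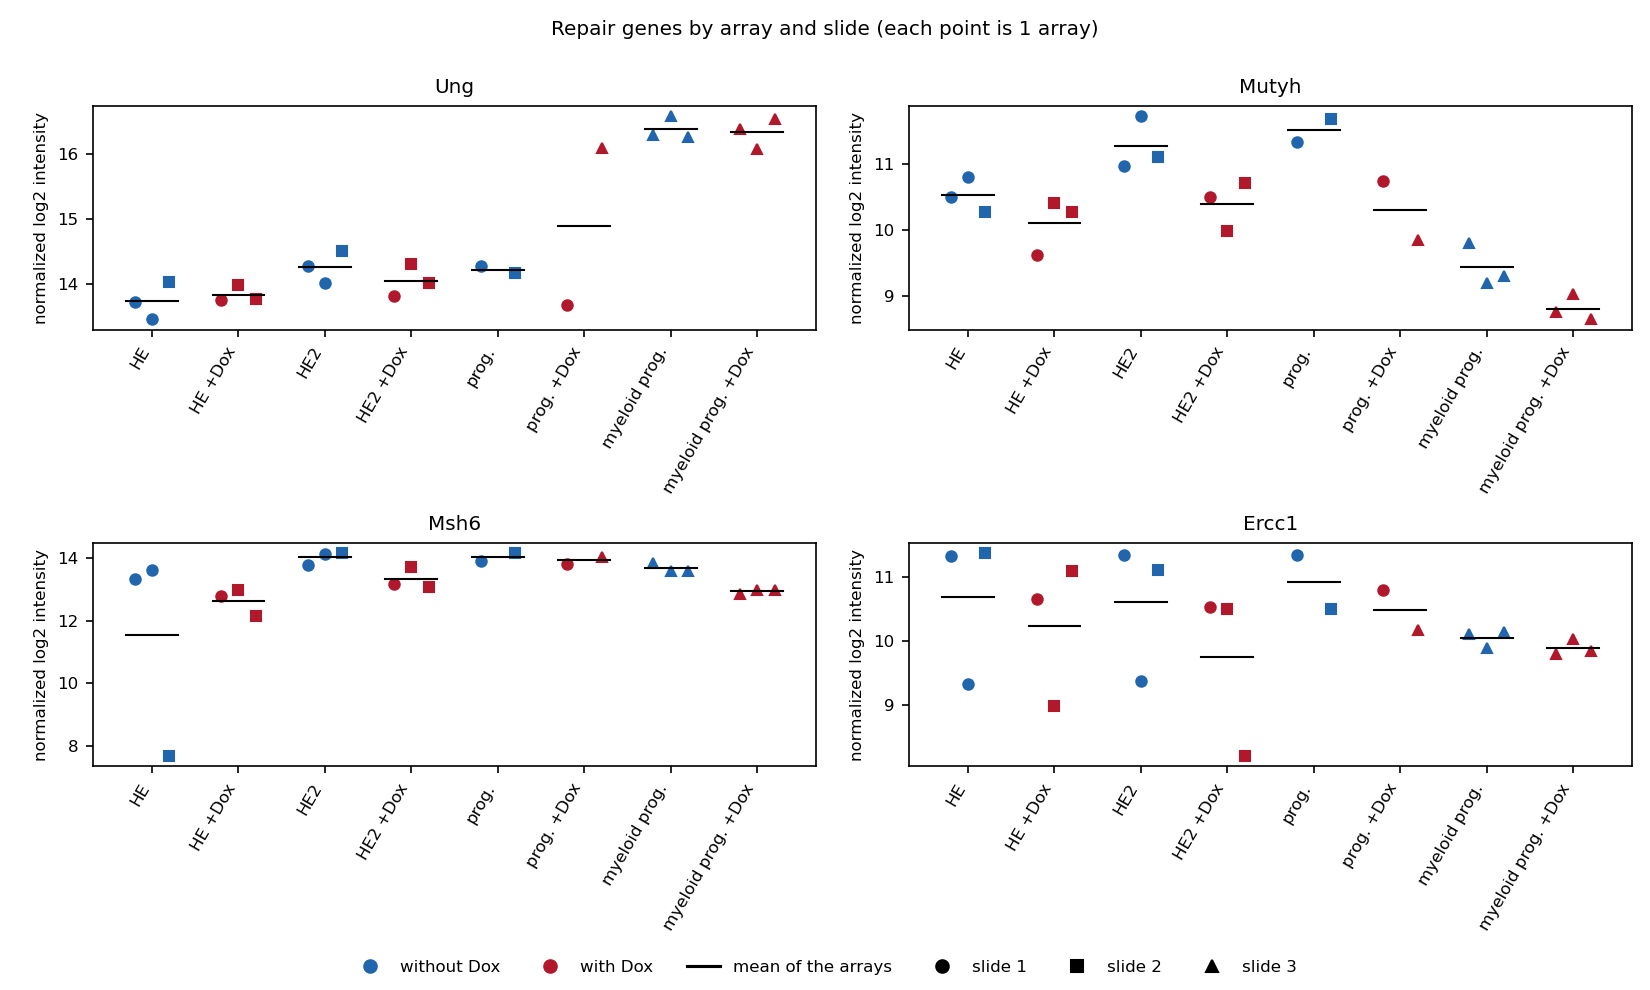
Log2 intensity (vertical axis) of Ung, Mutyh, Msh6 and Ercc1 on each of the 22 arrays of the fit (points), by group, in blue without and red with Dox, with the slide shown by the symbol and the group means as short lines. Ung is at 16.08 to 16.59 on slide 3 and at 13.45 to 14.50 on slides 1 and 2, Msh6 has 1 array at 7.66, and Ercc1 is low on the 4 arrays that deviate together.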

How the data were processed

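RNA of the 23 samples was hybridized to Agilent 1-colour arrays. The authors deposited, for each array, the median intensity of each spot and of its background with quality flags (other columns), as Feature Extraction gave them, before normalization. The paper's version (10.7.1.1) differs from that in the file headers (10.7.3.1). They also deposited normalized log2 values, used as an alternative, of which 6 of the columns match another array of their group best. No column of values (0) lacked an array. A mean intensity had been planned, and the median was used because the files hold it.

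From these, background was corrected by normexp (offset 16), 3671 control spots were left out, as were outlier-flagged spots among the 59305 others, and the 23 arrays were quantile normalized. Averaging spots gave 55681 probes, of which 26582 matched 20145 genes by accession in RefSeq. A gene was kept if some array (at least 1) reached 6.5 on the log2 scale (15202 genes), and these were fitted as 8 group means over 22 arrays with limma 3.58.1 in R 4.3.3, with 14 residual degrees of freedom for 14920 genes. P values measure the spread between arrays, and their number limits the precision. The script was tested on simulated data. Figures were drawn with Python 3.11.15 and matplotlib 3.10.9. The members and lists were chosen with earlier results of these data known. Named are members past a threshold in some comparison, and others by their ranges. Of the replicate numbers, those of uninduced HE and HE2 pair the arrays, with correlations of deviations of 0.394, 0.795 and 0.608, by the rule that each of 3 pairs exceed 0.1. Array 2 of both groups is among the 4 that deviate together, and deviations cancel within a group, so that these values are not independent. The other comparisons with 3 pairs do not meet it, and those with 2 pairs were not judged. Alternatives covered background correction, scaling, filters, probes, thresholds, slide, scan day, replicate number, the groups fitted and single arrays.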

Additional observations from a re-analysis of the deposited data

How the results depend on the processing

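Members called at P of 0.001 and 2-fold with Dox numbered 0 in each stage. They were 2 in HE and 1 in HE2 with scaling to the 75th percentile, 1 in HE with the slide as a block, 2 and 1 without the 4 arrays that deviate together, and 1 and 1 with these as a block, the last 2 settings having been chosen after seeing the data. Called by an adjusted P alone they were 9 in HE, 12 in HE2, 9 in myeloid progenitors, 5 and 6 for HE to HE2 without and with Dox, 5 from HE2 to progenitors with Dox and 9 from progenitors to myeloid progenitors. By 2-fold alone they were 2, 1 and 1 in HE, HE2 and progenitors, 1, 1 and 2 for the response of HE2 against HE, myeloid progenitors against HE and progenitors against HE2, and 1, 6 and 5 from HE to HE2 without Dox, HE2 to progenitors with Dox and progenitors to myeloid progenitors.

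At an adjusted P of at most 0.05, progenitors had 1 member (Mutyh) with an offset of 50, no background correction, the mean of probes, stages normalized apart or 75th percentile scaling. The last gave 2 in myeloid progenitors, 2 and 2 for HE to HE2 without and with Dox and 0 from HE2 to progenitors with Dox, where an offset of 50 gave 8. It moved the median of all genes in progenitors to -0.19, and the member medians to -0.23 in progenitors, 0.40 from HE2 to progenitors with Dox and -0.36 from progenitors to myeloid progenitors, which was -0.10 with the mean of probes. Fitting only the groups compared gave 0 in HE, 3 in HE2, 19 in myeloid progenitors, 0 and 0 for HE to HE2 without and with Dox (called 0), 0 from HE2 to progenitors with Dox and 15 from progenitors to myeloid progenitors. The shares of all genes in these fits are not given here. With slide or scan day as a block the last step had 0 (called 0), and HE2 to progenitors with Dox had 1 and 0, with a median of 0.40 for the scan day. From progenitors to myeloid progenitors Ung turned to -0.13 and -0.26 and Fanca to -0.20 and -0.27 with slide and scan day. Without the 4 arrays 4 fell in HE2, 3 rose from HE to HE2 without Dox, and with Dox 2 were called and the median was 0.52. With them as a block 14 fell in HE, 10 rose from HE to HE2 without Dox and 12 from HE2 to progenitors with Dox. The cause of these changes was not tested.

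Leaving out 1 array at a time, members called ranged from 0 to 2 in HE, 0 to 1 in HE2, 0 to 2 in progenitors, 0 to 1 and 0 to 2 from HE to HE2 without and with Dox, 0 to 3 from HE2 to progenitors with Dox, 2 to 4 from progenitors to myeloid progenitors and 0 to 2 for the response of progenitors against HE2. Those at an adjusted P of at most 0.05 ranged from 6 to 12, 3 to 11, 0 to 2 and 2 to 7 in the 4 stages, 1 to 5 and 1 to 7 from HE to HE2, 0 to 7 from HE2 to progenitors with Dox, 3 to 7 from progenitors to myeloid progenitors and 0 to 2 for progenitors against HE2. Medians ranged from -0.49 to -0.36, -0.57 to -0.38, -0.20 to 0.03 and -0.41 to -0.36 in the 4 stages, 0.33 to 0.47 and 0.24 to 0.53 from HE to HE2, 0.02 to 0.15 and 0.40 to 0.57 from HE2 to progenitors and -0.24 to -0.18 from progenitors to myeloid progenitors. With the replicate number as a block, 10, 10 and 8 fell in HE, HE2 and myeloid progenitors and 7 and 7 rose from HE to HE2, where the pairing held without Dox. Progenitors had 2 arrays a group, and a lone array left in a group was assumed to vary like the others.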
